A study of Mus musculus with 2 samples.

Results

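The stefins of mouse bone marrow were examined as a set of 6 genes, Stfa1, Stfa2, Stfa2l1, Stfa3, Cstdc4 and Cstb, taken by symbol from the 32286 features of the count matrices, in which all 6 were found. Hematopoietic cells of bone marrow were profiled by droplet-based single-cell sequencing of transcript 3′ ends in 2 libraries, with 1 library per group. Both genotypes carried 1 copy of Mx1Cre, a Cre recombinase under an interferon-inducible promoter; the control, Mx1Cre+/-;Rosa26+/+, had unaltered Rosa26 alleles. The other, Mx1Cre+/-;Rosa26LSL-MYC/LSL-MYC, had a MYC transgene behind a removable stop cassette on both Rosa26 alleles and is called MYC marrow here and the MYC library in the figures. The design asks how gene expression in marrow cells differs once MYC is overexpressed from the stem cell onward. The labels used here give no age, sex, number of animals or induction schedule, and Mx1-Cre acts in hematopoietic as well as other interferon-responsive cells, so MYC marrow holds every cell type that carried the alleles, whether or not its stop cassette had been removed.

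Stefins, the type 1 cystatins, are small proteins without a secretion signal that bind tightly and reversibly in the active site of papain-like cysteine proteases, among them the lysosomal cathepsins B, H, L and S. Stefin B, encoded by Cstb, is made in most cell types and its loss in humans causes a progressive myoclonus epilepsy. Stefin A is encoded by a single gene in humans, whereas the mouse carries a cluster of stefin A-like genes, several of which are expressed in neutrophils.

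The stefin genes were selected on their measured levels in these data, as genes that mark mature neutrophils lying mostly in MYC marrow, so their levels across classes and libraries are given as descriptions without tests. With 1 library per group, no difference between genotypes could be set against the spread between animals. Intervals are 95% intervals for counting error only. They treat unique molecular identifiers (UMIs) as independent, although stefin UMIs lay clumped in few cells, and are therefore narrower than the sampling of cells allows.

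The stefin A-like members form a cluster on mouse chromosome 16. In the GENCODE vM21 annotation of GRCm38 they span 299 kb, with Stfa2l1 at chr16:36156811-36161953, Cstdc4 at chr16:36184212-36188111 and Stfa1 at chr16:36276951-36285373 on the plus strand, and Stfa2 at chr16:36403992-36408457 and Stfa3 at chr16:36450537-36455392 on the minus strand. Cstb lies apart, at chr10:78425669-78427622 on the plus strand. All 6 are annotated as protein-coding. The longest annotated transcripts of the 5 clustered genes were 75.4% to 95.7% identical to each other over aligned bases, with Stfa2 and Stfa2l1 the closest pair, against 60.7% to 71.4% between each of them and Cstb.

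RefSeq start sites were found for 5 of the 6 genes, all but Cstb, in the promoter table of GRCm38.p6. The sequences before them were compared because these 5 genes moved together across the cell classes described further on. Over the 250 bases before the start, the promoters were 71.2% to 92.3% identical in pairs, and the longest stretch present in all 5 on the coding strand was 13 bases long. Those bases are in capitals in the promoters that follow, which run 5′ to 3′ on each gene's own strand; those of Stfa2l1, Cstdc4 and Stfa3 end just before the start site. For Stfa1 and Stfa2 the window overlaps exons of the GENCODE annotation, and only 30 bases from the shared stretch onward are shown.
Stfa2l1: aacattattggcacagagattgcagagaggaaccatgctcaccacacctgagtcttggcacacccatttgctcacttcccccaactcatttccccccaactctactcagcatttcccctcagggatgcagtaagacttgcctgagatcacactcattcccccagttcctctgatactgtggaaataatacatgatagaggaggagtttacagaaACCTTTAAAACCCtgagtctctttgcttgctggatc
Cstdc4: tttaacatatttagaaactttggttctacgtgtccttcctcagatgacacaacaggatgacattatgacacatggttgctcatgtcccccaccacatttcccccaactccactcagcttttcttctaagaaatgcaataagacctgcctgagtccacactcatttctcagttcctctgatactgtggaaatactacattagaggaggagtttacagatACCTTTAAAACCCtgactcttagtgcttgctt
Stfa3: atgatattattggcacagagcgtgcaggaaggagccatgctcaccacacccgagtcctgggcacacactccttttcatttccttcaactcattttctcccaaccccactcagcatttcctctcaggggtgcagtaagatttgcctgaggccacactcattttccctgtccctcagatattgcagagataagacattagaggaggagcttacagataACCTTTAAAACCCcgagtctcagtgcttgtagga
Stfa1: ACCTTTAAAACCCtgagtctcagtgctttg
Stfa2: ACCTTTAAAACCCtgagtctctatgcttgc
The windows are chr16:36156561-36156810 for Stfa2l1, chr16:36183962-36184211 for Cstdc4 and chr16:36277115-36277144 for Stfa1, all on the plus strand, and chr16:36455393-36455642 for Stfa3 and chr16:36408366-36408395 for Stfa2, both on the minus strand.

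The shared stretch began 32 to 36 bases before the start site in the 5 promoters. On either strand it was present in 8 of 32851 promoters of that length (0.0244%): those of these 5 genes, of Csta3 and Cstdc3, which are also stefin A-like genes, and of the predicted gene Gm7260. Of 5 motifs searched on both strands, the MYC-bound E-box CACGTG and the TATA box TATAAA matched none of the 5 promoters, against 6.02% and 12.4% of all promoters. The C/EBP motif TTGCNNAA matched only Stfa1 (9.56% of all promoters), the PU.1 motif GAGGAAG matched Stfa1 and Cstdc4 (10.6%), and the NF-kB motif (GGGA and CC separated by any 4 bases) matched only Stfa1 (17.6%). These are matches of letters in 1 window per gene and say nothing of binding. Only these letters were searched. TTTAAA, which lies in the shared stretch of all 5 promoters, is close to TATAAA in letters but was not counted. The missing TATAAA therefore does not show that a TATA-like element was absent.

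The similarity of the genes also bears on their counts. Of the last 300 bases of the longest Stfa1 transcript, where 3′ reads fall, 51.0% of the 50-base stretches also occur in Cstdc5 or Cstdc6, and 24.3% to 25.1% of those of Stfa2l1 and Stfa2 occur in another gene, chiefly in each other. The shorter Cstdc4 transcript shared 33.9% of these stretches with Csta2, its longer transcript and those of Stfa3 and Cstb none with any gene. Single values of Stfa1, Stfa2, Stfa2l1 and Cstdc4 are uncertain to that degree, and the 5 clustered genes are therefore also given as their summed UMIs, the stefin A-like sum.

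After filters 14760 control cells (median 5321.5 UMIs) and 12645 cells of MYC marrow (median 6014 UMIs) were left from 17073 and 14496 barcodes, which held 131884603 and 110012176 UMIs. Barcodes kept in both libraries numbered 77, and without them the stefin values of mature and immature neutrophils moved by less than their counting intervals. Cells were clustered with the stefin genes left out and clusters were named from marker genes. The mature neutrophil class held 3967 control cells and 3186 cells of MYC marrow, in clusters numbered 0, 1, 2, 8 and 16. Different clusters held most of it in the 2 libraries: clusters 0 (1737 control cells and 167 of MYC marrow) and 1 (822 and 76) were mostly control, cluster 2 (77 and 1586) mostly from MYC marrow, and cluster 8 (1229 and 1336) was shared. Cluster 16, led by interferon-induced genes, held 102 and 21 cells. In the class, summed gelatinase-stage markers stood at 30635 counts per 1000000 UMIs (CPM) in the control and 39970 in MYC marrow, and summed terminal markers at 6561 and 4799. Of other cell types, the 13 monocyte markers summed to 982 and 1063 CPM and the 11 erythroid markers to 2821 and 1539 CPM, and the part of such RNA in the stefin values was not tested.

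The stefin A-like transcripts were those of mature neutrophils in both libraries. This class made up 26.9% of control cells and 25.2% of MYC-marrow cells, and held 87.0% and 88.7% of all stefin A-like UMIs. The level was 988 CPM (interval 973 to 1003) in control and 2143 CPM (2121 to 2165) in MYC-marrow mature neutrophils. The next stage down, immature neutrophils with secondary-granule transcripts such as Ltf and Camp, stood at 35.3 and 65.9 CPM, and granulocyte progenitors, rich in Elane and Mpo, at 10.1 and 51.9 CPM. Monocytes stood at 15.1 and 31.3 CPM. In the other 9 named classes the sum lay between 4.03 CPM (stem or multipotent progenitors) and 59.2 CPM (plasmacytoid dendritic cells) in the control, and between 13.2 CPM (stem or multipotent progenitors) and 180 CPM (megakaryocytes) in MYC marrow. In the control the intervals of neighbouring classes from T or NK cells, ranked 4th, down to stem or multipotent progenitors overlapped, as did those from basophils or mast cells, ranked 3rd, down to macrophages in MYC marrow.

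**Figure D1:**
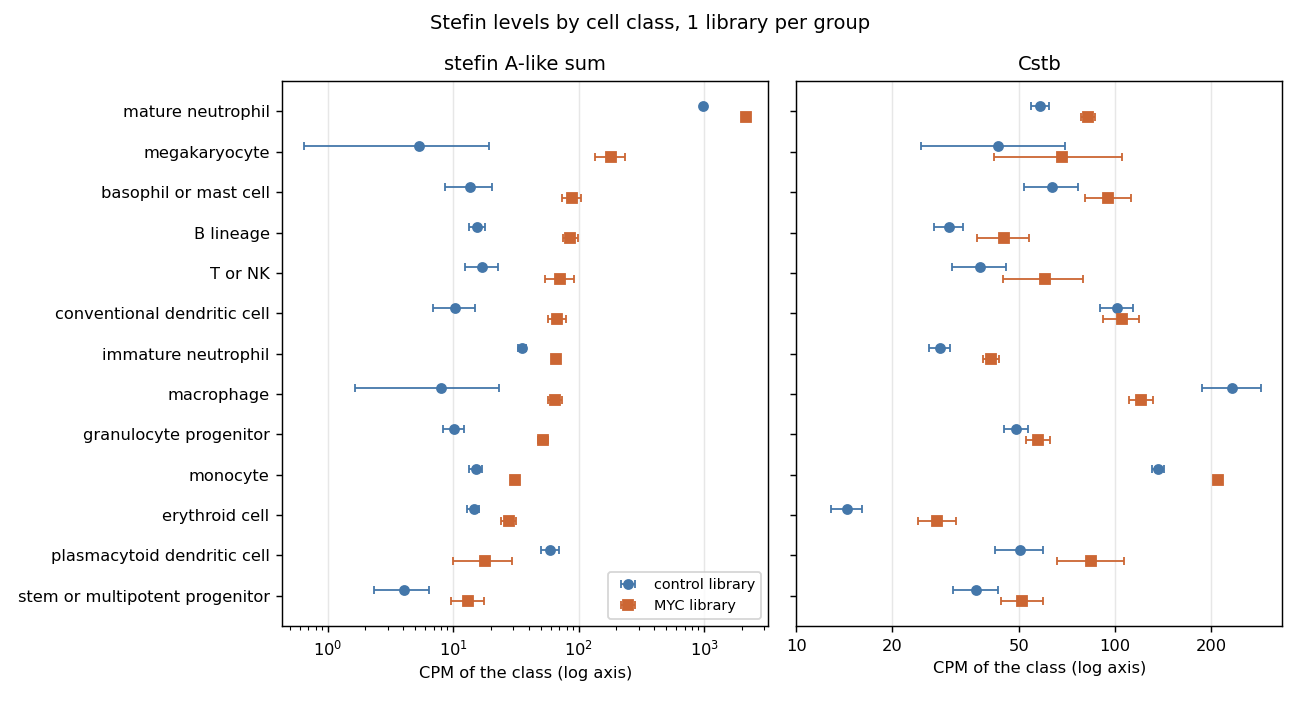
Level of the stefin A-like sum (left) and of Cstb (right) in each named class, in CPM of the class on log axes, for the control (circles) and MYC library (squares); bars are 95% Poisson intervals for counting error, and classes are ordered by the stefin A-like sum of MYC marrow. Mature neutrophils stand at 988 and 2143 CPM on the left, apart from every other class, whereas on the right monocytes, macrophages and conventional dendritic cells lie above them.

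In some classes other than mature neutrophils, much of the low signal sat in single cells. Of 221 stefin A-like UMIs in MYC-marrow B-lineage cells, 98 came from 1 cell, and of 53 in megakaryocytes 35 did. In control plasmacytoid dendritic cells 59 of 156 UMIs lay in 1 cell, and in MYC-marrow granulocyte progenitors 111 of 462. The richest cell held a smaller part in some other classes. It held 28 of 252 UMIs in control monocytes, 60 of 788 in MYC-marrow monocytes and 30 of 209 in MYC-marrow erythroid cells. Whether these cells were doublets that escaped calling was not tested. With each cell thinned to 1000 UMIs, the share of cells with a stefin A-like UMI was 1.41% and 2.48% in B-lineage cells and 1.65% and 3.31% in erythroid cells of the control and MYC library, which served as the background. Unthinned, these shares were 6.04% and 9.72% at median depths of 5210.5 and 5531 UMIs in B-lineage cells, and 7.05% and 10.7% at 10800 and 8140 UMIs in erythroid cells. Monocytes, at 0.678% and 1.96%, were at or below that background. Granulocyte progenitors, at 0.377% and 2.84%, lay below it in the control and between the 2 background classes in MYC marrow. Immature neutrophils lay at 1.74% and 5.17%, in the control close to the erythroid share. Mature neutrophils lay far above it, at 28.3% in the control and 47.9% in MYC marrow (unthinned 37.9% and 63.7%, at median depths of 3887 and 5220 UMIs).

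In mature neutrophils all 6 genes were higher in MYC marrow, by amounts that ranged from 1.36-fold to 8.28-fold. Of all 9392 genes with at least 50 UMIs there, 33.7% were higher. The genes were chosen with this contrast known, so nothing is read from the count of 6. Stfa2 went from 24.4 CPM (22.1 to 26.9) in the control to 202 CPM (196 to 209) in MYC marrow, a log2 ratio of 3.05 (interval 2.90 to 3.20). Stfa1 stood at 55.9 and 257 CPM, a log2 ratio of 2.20 (2.10 to 2.31). These 2 genes thus separated the libraries most. The 2 genes that carried most of the family's UMIs differed by less: Stfa2l1 stood at 463 and 856 CPM, a log2 ratio of 0.89 (0.85 to 0.93). Cstdc4 stood at 412 and 784 CPM, a log2 ratio of 0.93 (0.88 to 0.97). Stfa3 differed least, with 32.3 and 43.8 CPM, a log2 ratio of 0.44 (0.28 to 0.60). Cstb, the ubiquitous stefin, stood at 58.2 and 82.3 CPM, a log2 ratio of 0.50 (0.38 to 0.62). Over 13 other settings Stfa2 stayed between 2.66 and 3.44 and Stfa1 between 1.82 and 2.42, whereas Stfa2l1 ran from 0.46 to 1.65, Cstdc4 from 0.47 to 1.96 and Stfa3 from -0.31 to 1.01.

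Among all 9392 genes with at least 50 UMIs in mature neutrophils, 2.73% were at least 2-fold higher in MYC marrow and 6.87% at least 2-fold lower. Of the 6 stefin genes 2, Stfa1 and Stfa2, were past 2-fold higher and none past 2-fold lower. Because this contrast helped choose the genes, nothing is read from that count. The median log2 ratio was 0.91 over the 6 genes and -0.22 over all genes, so relative to the median gene each stefin stood somewhat higher still. Stfa2 and Stfa1 lay at the 99.9th and 99.8th percentile of all genes, Cstdc4 and Stfa2l1 at the 96.7th and 96.4th, and Cstb and Stfa3 at the 89.5th and 87.7th.

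**Figure D2:**
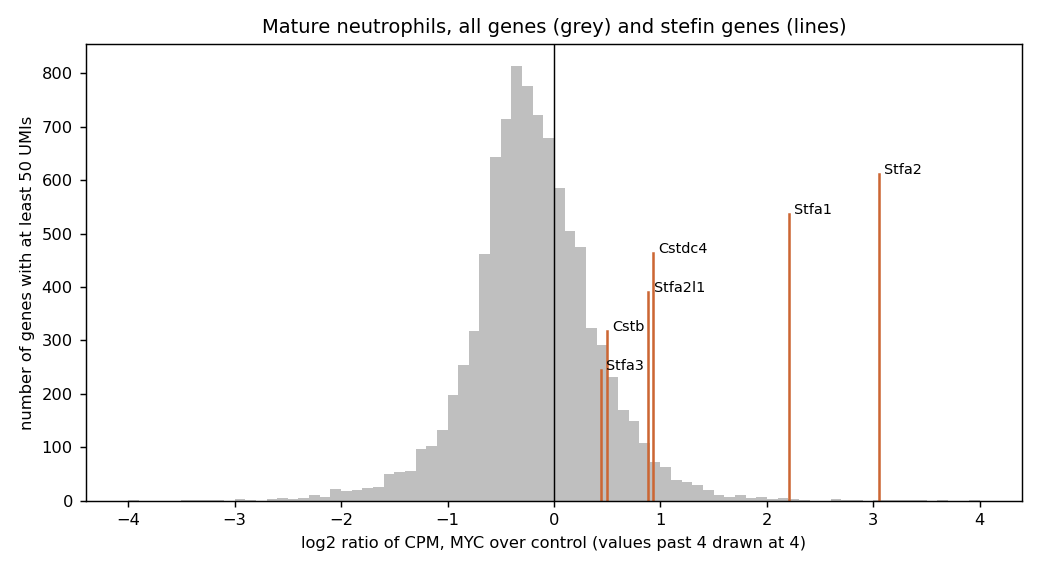
Log2 ratio of the level in MYC marrow over the control in mature neutrophils for all 9392 genes with at least 50 UMIs (grey histogram, number of genes on the vertical axis), with the 6 stefin genes as labelled lines whose heights carry no meaning. Stfa1 and Stfa2, at 2.20 and 3.05, lie in the far right tail, and Cstb and Stfa3, at 0.50 and 0.44, within the bulk of genes.

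The makeup of the stefin A-like pool differed accordingly. These are shares of assigned 3′ UMIs. Since the genes share sequence to unequal degrees, they do not give the exact proportions of the transcripts. Stfa2l1 made up 46.9% of the pool in control mature neutrophils and 39.9% in MYC marrow, and Cstdc4 41.7% and 36.6%. Stfa1 went from 5.66% to 12.0% and Stfa2 from 2.47% to 9.45%, while Stfa3 made up 3.27% and 2.04%. As a class, immature neutrophils had another makeup: Stfa1 held 46.1% of the pool in the control and 52.3% in MYC marrow. The richest cell alone held 18.6% and 10.4% of the Stfa1 UMIs there. The Stfa1 share differed between the immature clusters of control and MYC marrow. It was 27.1% and 65.5% in cluster 3, 69.8% and 59.9% in cluster 4, and 39.7% and 27.2% in cluster 7. Stfa1 did not lead everywhere: Cstdc4 held 35.7% and Stfa2l1 29.5% in control cluster 3, and Stfa2l1 41.3% in MYC-marrow cluster 7.

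Within mature neutrophils the difference in the stefin A-like sum between libraries was seen in clusters of each origin but the smallest. Cluster 8 was the only one with at least 25% of its cells from each library. Its stefin A-like sum was 249 CPM (237 to 261) in control and 839 CPM (819 to 859) in MYC-marrow cells. The log2 ratio was 1.75, against 1.12 over the whole class. Stage markers also differed between the libraries within cluster 8. Ltf stood at 13212 and 9095 CPM, Mmp8 at 6073 and 3622 CPM and Retnlg at 12505 and 17571 CPM, while Camp was close, at 16871 and 17538 CPM. There Stfa2 stood at 10.0 and 79.7 CPM, Stfa1 at 29.1 and 134 CPM, Stfa2l1 at 110 and 345 CPM, and Cstdc4 at 65.3 and 253 CPM. Stfa3 had 34.1 CPM in control and 27.5 CPM in MYC-marrow cells, a log2 ratio of -0.31 (-0.58 to -0.04), but 37 of its 228 control UMIs lay in 1 cell. Without the richest cell of each library the ratio was -0.16 (-0.45 to 0.13). For Stfa2 41 of 67 control UMIs lay in 1 cell, and without the richest cells its log2 ratio of 2.99 became 4.25. The terminal cluster 0 held 1656 CPM of the sum in control and 3476 CPM in MYC-marrow cells. Here Stfa3, at 14.2 and 57.2 CPM, was higher in MYC marrow, with 33 UMIs over its 167 cells, 11 of them in 1 cell. In cluster 1 the sum was 1197 and 1885 CPM without the richest cell of each library, a log2 ratio of 0.65 (0.54 to 0.77). Cstdc4 hardly differed there by the same measure, at 532 and 524 CPM, a log2 ratio of -0.02 (-0.24 to 0.18). Cstb stood at 44.0 and 75.1 CPM in cluster 8, but its intervals overlapped in clusters 0, 1 and 2.

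The highest sums in the control thus lay in the terminal clusters, and in MYC marrow in both a terminal and a gelatinase-stage cluster. Cluster 2, led by Cxcl2, Prok2 and Ifitm1 and made up mostly of MYC-marrow cells, reached 3443 CPM in that library, close to the 3476 CPM of its terminal cluster 0, and 1145 CPM in its 77 control cells. Cstdc4 and Stfa2l1 stood among its 10 leading genes although they took no part in the clustering. Over all gelatinase-stage clusters together the sum was 606 CPM in the control and 2104 CPM in MYC marrow, a log2 ratio of 1.79 (1.76 to 1.83). Over the terminal clusters it was 1660 and 3036 CPM, a log2 ratio of 0.87 (0.80 to 0.94). Cluster 16 was the exception, with 1719 CPM in 102 control cells and 1007 CPM in only 21 MYC-marrow cells. Stage markers differed there too: the terminal marker Csf3r stood at 1234 and 256 CPM and the immature marker Camp at 5151 and 11881 CPM, so the terminal name does not hold equally for both libraries' cells. Stfa2 had no UMI in those 21 cells, which allows up to 14.3% of such cells to have a UMI of it at this depth.

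**Figure D3:**
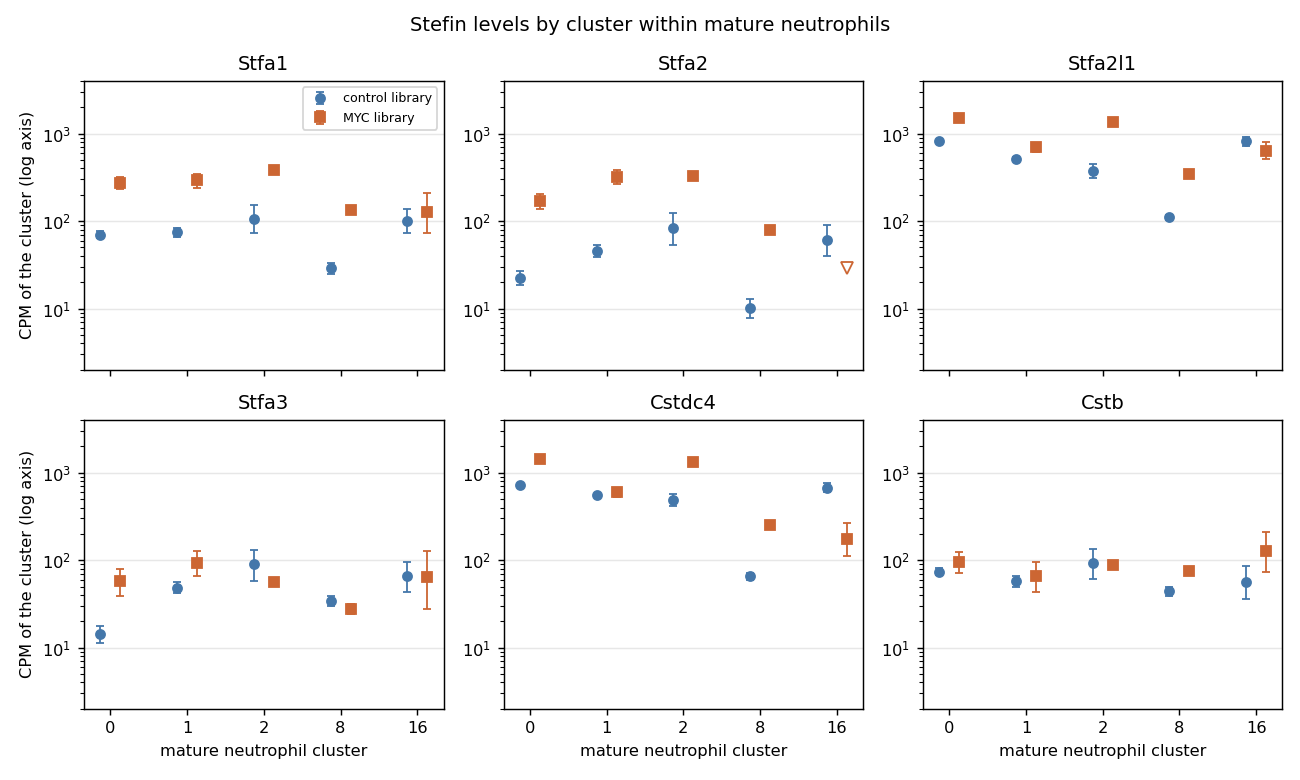
Level of each stefin gene in the 5 clusters of mature neutrophils, in CPM of the cluster on a log axis, for control (circles) and MYC-marrow cells (squares); bars are 95% Poisson intervals for counting error, and the open triangle is the upper limit for a gene with 0 UMIs. Stfa1 and Stfa2 are higher in MYC-marrow cells of clusters 0, 1, 2 and 8, while Stfa3 is lower in clusters 2 and 8, where 17 of 26 and 37 of 228 control UMIs came from 1 cell.

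The stefin A-like genes were also set apart by how their UMIs were spread over cells. For each gene, the share of mature neutrophils with at least 1 UMI was compared with the share expected if its UMIs were spread over the cells in proportion to their depth. Over genes with at least 400 UMIs the median ratio of observed to expected was 0.963 in the control (3677 genes) and 0.970 in MYC marrow (3414 genes). Stfa1 was seen in 3.81% of control cells where 20.3% were expected, and in 11.8% of MYC-marrow cells where 69.4% were expected, ratios of 0.187 and 0.170. Stfa2 had ratios of 0.208 and 0.213, Stfa3 of 0.211 and 0.310, Cstdc4 of 0.233 and 0.346, and Stfa2l1 of 0.336 and 0.476. The 5 genes took ranks 2 and 4 to 7 among the most unevenly spread genes of control mature neutrophils and ranks 1, 4, 5, 6 and 9 in MYC marrow. Cstdc5, a neighbour in the cluster that shares sequence with Stfa1, ranked 3rd and 2nd, and Olfm4, a granule protein gene known to be made by only a subset of neutrophils, ranked 1st and 3rd. Cstb lay close to the median gene, with ratios of 0.924 and 0.930 and ranks of 605 and 426.

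**Figure D4:**
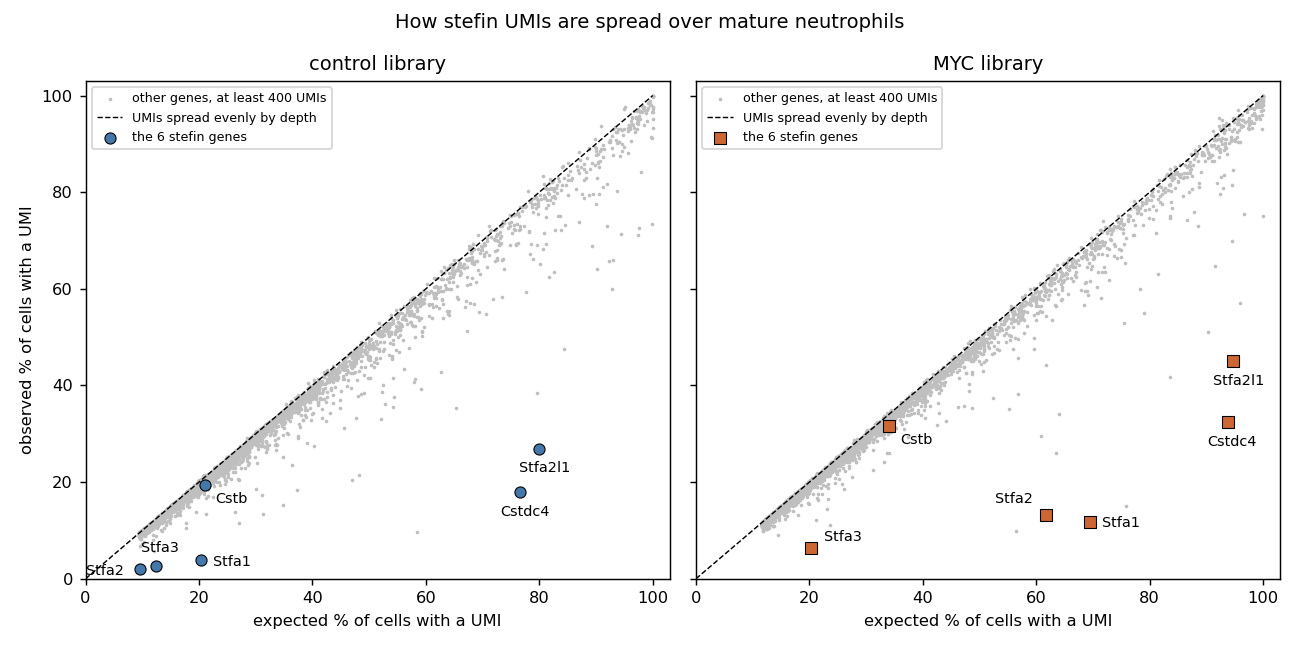
Share of mature neutrophils with at least 1 UMI of a gene (vertical axis, observed) against the share expected if its UMIs were spread evenly by depth (horizontal axis), for genes with at least 400 UMIs (grey) and the 6 stefin genes (coloured) in the control (left) and MYC library (right). Cstb lies near the dashed line of even spread, whereas the 5 stefin A-like genes lie far below it, Stfa1 at 3.81% observed for 20.3% expected in the control and 11.8% for 69.4% in MYC marrow.

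Some cells held many stefin A-like UMIs, and the averages rest on them. A control mature neutrophil with any Cstdc4 had 9.61 Cstdc4 UMIs on average, and a MYC-marrow one 12.8, with up to 66 and 121 in single cells. For Stfa1 the averages were 6.12 and 11.6 UMIs with maxima of 61 and 116, while a cell with any Cstb held 1.25 and 1.38 Cstb UMIs. At least 5 UMIs were reached by 401 of 709 control cells with Cstdc4 and by 631 of 1033 in MYC marrow. For the less abundant genes fewer did so, with 61 of 151 and 194 of 376 for Stfa1, 24 of 79 and 194 of 419 for Stfa2, and 33 of 104 and 51 of 200 for Stfa3. The uneven spread was also present inside single clusters: over the 38 combinations of stefin A-like gene, cluster and library with at least 50 UMIs, the ratio of observed to expected ran from 0.133 to 0.603 with a median of 0.268.

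Over the whole class, the share of cells with a UMI was higher in MYC marrow for all 5 stefin A-like genes, and the number of UMIs in such cells for 4 of them. In cluster 8, which both libraries share, the number of UMIs in such cells was higher for 3, Stfa1, Stfa2l1 and Cstdc4. Stfa2 had 6.09 and 5.98 there, with 41 of its 67 control UMIs in 1 cell. Stfa3 had 5.56 and 2.82, with 37 of its 228 control UMIs in 1 cell. Over the class, the share of cells with a Stfa2 UMI was 1.99% in the control and 13.2% in MYC marrow, and the UMIs per such cell 5.11 and 8.16. For Stfa2l1 the shares were 26.9% and 45.0% with 7.18 and 10.1 UMIs per such cell, and for Cstdc4 17.9% and 32.4%. Stfa3 was seen in more cells, 2.62% and 6.28%, but with 5.13 UMIs per such cell in the control and 3.70 in MYC marrow. These shares and the UMIs per such cell are unthinned. The deeper MYC-marrow cells raise the shares somewhat and can raise the UMIs per such cell. How many of all genes were higher on either measure was not counted, so nothing is read from the numbers of stefin genes. Thinned to 1000 UMIs, Stfa2 was seen in 1.07% and 7.90% of cells, Stfa1 in 2.26% and 7.64%, Stfa2l1 in 19.3% and 31.4%, Cstdc4 in 13.2% and 23.3%, Stfa3 in 1.30% and 2.97%, and Cstb in 5.98% and 7.61%. Among the thinned mature neutrophils the richest 10% held 69.1% of the class's stefin A-like UMIs in control and 53.2% in MYC marrow.

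Over the class, most cells rich in a stefin A-like gene were rich in only 1 of the 5. Cells rich in 1 gene were still rich in another more often than all cells were. With at least 5 UMIs of a gene as the mark, 79.1% of control mature neutrophils were rich in none of the 5 genes, 15.6% in 1, 4.81% in 2 and 0.403% in 3. In MYC marrow these shares were 60.5%, 23.5%, 12.0% and 3.42%. A single control cell and 5 cells of MYC marrow were rich in all 5 genes. Of the 401 control cells rich in Cstdc4, 46.4% were also rich in Stfa2l1, against 13.8% of all control cells. Of the 631 such cells of MYC marrow 55.0% were, against 26.6% of all. In both libraries each of the 10 pairs of genes showed a higher share among the rich cells than among all cells, from 1.80 to 15.03 times as high in the control and from 1.84 to 6.44 times in MYC marrow. In MYC marrow the cells rich in a gene had median depths of 4950 (Cstdc4) to 5653 UMIs (Stfa3), against 5220 over all. In the control they had 3751 (Cstdc4) and 3801 UMIs (Stfa2l1), but 4816.5 for Stfa2 and 5005 for Stfa3, against 3887 over all, and the part of depth in these pairs was not tested. Within cluster 8 all 10 pairs kept this direction in MYC marrow, but only 5 did in the control, where cells rich in a gene were few. Read sharing between Stfa2 and Stfa2l1 can add to their pairing, and its part was not tested.

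Cstb followed another pattern, that of monocytes and macrophages. Monocytes held 37.1% of control and 53.0% of MYC-marrow Cstb UMIs, mature neutrophils 15.7% and 13.9%. Monocytes made up 7.99% and 12.5% of the cells, at median depths of 11558.5 and 13707 UMIs, and mature neutrophils 26.9% and 25.2%. The Cstb level was 136 CPM (131 to 142) in control and 211 CPM (205 to 217) in MYC-marrow monocytes, a log2 ratio of 0.63 (0.56 to 0.70). A Cstb UMI was seen in 75.7% and 84.7% of monocytes. Macrophages stood at 233 CPM (187 to 287) in 73 control cells and at 121 CPM (110 to 132) in 664 cells of MYC marrow. Different clusters held most of this class in the 2 libraries: cluster 27, led by Cd5l and Mrc1, held 53 control cells and 27 of MYC marrow, and cluster 10, with C1qb and Cd300e among its leading genes, 20 and 637. Within cluster 27 Cstb stood at 284 and 262 CPM, a log2 ratio of -0.11 (-0.76 to 0.50), and within cluster 10 at 114 and 116 CPM, a log2 ratio of 0.03 (-0.76 to 0.95). The lower value of the class in MYC marrow was thus not seen within either cluster, and it changed sign under 4 of 10 other ways of filtering, clustering or scaling. The class named conventional dendritic cells from its MHC class II genes is 1 cluster that was also led by Ace and Adgre4, both on the monocyte marker list, so its name is uncertain. Its Cstb level was 101 and 105 CPM, with a log2 ratio of 0.05 (-0.21 to 0.31). From basophils or mast cells downward the neighbouring intervals overlapped in both libraries until immature neutrophils, at 28.1 and 40.8 CPM, and erythroid cells were lowest at 14.4 and 27.7 CPM. Cstb was higher in MYC marrow in 12 of the 13 named classes, by log2 ratios of 0.05 in conventional dendritic cells to 0.94 in erythroid cells. Across 26 profiles of class and library, the levels (log2 of CPM plus 1) of the 5 clustered genes had Pearson correlations of 0.59 (Stfa1 with Stfa3) to 0.93 (Stfa2l1 with Cstdc4) with each other, but of 0.04 to 0.17 with Cstb. The profiles share 2 libraries and their depths, so these are descriptions.

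In immature neutrophils the stefin A-like sum was 35.3 CPM (33.0 to 37.7) in the control and 65.9 CPM (62.8 to 69.1) in MYC marrow, a log2 ratio of 0.90 (0.78 to 1.02). At least 2-fold higher were 2.32% of all 10209 genes there and 3.2% were at least 2-fold lower. Of the 6 stefin genes none was lower by that much and 3 were higher: Stfa2 at 1.01 and 2.85 CPM, Stfa1 at 16.3 and 34.4 CPM, and Stfa2l1 at 9.08 and 18.9 CPM. Stfa3, at 1.86 and 1.97 CPM, and Cstdc4, at 7.10 and 7.71 CPM, differed by less than their counting error, and Cstb stood at 28.1 and 40.8 CPM. Of the 3 genes, Stfa2 had a log2 ratio of 0.21 with called doublets kept and Stfa2l1 of -0.0197 among cells with under 5% mitochondrial UMIs, so both lost the 2-fold call there, while Stfa1 stayed between 1.05 and 2.11 over 12 other settings. The size of the difference in the sum varied between settings as well: without the 1% of cells richest in stefin A-like UMIs the log2 ratio was 1.71, and among cells with under 5% mitochondrial UMIs it was 0.17. The difference was not seen in each immature cluster. Without the richest cell of each library, the log2 ratio of the sum was 1.46 in cluster 3 and 1.77 in cluster 7, but 0.05 (-0.22 to 0.31) in cluster 4. That of Stfa1 was 2.36 and 1.50, but -0.15 (-0.50 to 0.21) in cluster 4. In monocytes, where 1.83% of all genes were at least 2-fold higher, against 4.33% lower, 3 of the 5 stefin genes with at least 50 UMIs were: Stfa1, Stfa2 and Stfa2l1, from levels of at most 6.35 CPM in the control. In granulocyte progenitors (0.835% of all genes higher and 4.79% lower) 3 of the 4 stefin genes with at least 50 UMIs were: Stfa1 at 1.36 and 15.5 CPM, Stfa2l1 at 4.62 and 22.0 CPM, and Cstdc4 at 3.63 and 9.33 CPM. These calls depended on the cells kept and on how they were classed: the log2 ratio of Stfa1, 3.51, was 1.16 at clustering resolution 2 and 0.56 with marker-only classes, that of Stfa2l1, 2.25, was 0.50 and 0.52, and that of Cstdc4, 1.36, was -0.21 and -0.22. Among cells with under 5% mitochondrial UMIs all 3 were below 2-fold, at 0.89, 0.87 and 0.49. In monocytes Stfa2l1 (1.12) was at 0.67 with called doublets kept. The background classes were higher in MYC marrow too: the stefin A-like sum had a log2 ratio of 2.47 in B-lineage cells, against 2.37 in granulocyte progenitors and 1.05 in monocytes, and of 0.94 in erythroid cells. Stfa1 in B-lineage cells had a log2 ratio of 4.59, with 31 of its 43 UMIs in MYC marrow from 1 cell, and Stfa2l1 in erythroid cells of 1.64. Without the richest cell of each library the log2 ratio of the sum was 1.96 in B-lineage cells, 1.03 in erythroid cells, 1.04 in immature neutrophils, 1.11 in monocytes and 2.32 in granulocyte progenitors. The background classes were uneven inside. By the same measure erythroid cluster 5 had 3.05, but erythroid clusters 6 and 26 had 0.01 and -0.04. Plasma cells (cluster 14) had 2.31 and mature B cells (cluster 22) 0.27. B progenitors (cluster 9) numbered 482 in the control but 19 in MYC marrow, where they held 1 UMI of the sum. In MYC marrow the thinned share of immature neutrophils with a stefin A-like UMI, 5.17%, was above that of both background classes, whereas those of monocytes and granulocyte progenitors were not above both. The part of free RNA in these differences was not tested.

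Few other stefin A-like genes of the chromosome 16 cluster could be measured in mature neutrophils. Of 14 names listed 7 were among the features, 2 of which, Cstdc1 and Cstdc2, lie on chromosome 2 and had no UMI in mature neutrophils. At least 50 UMIs were held by 3, of which 2 were at least 2-fold higher in MYC marrow, as were 2.73% of all genes: Cstdc5 at 25.8 and 172 CPM, a log2 ratio of 2.74 (2.59 to 2.89), and Csta2 at 1.45 and 6.45 CPM, a log2 ratio of 2.15. Csta3 stood at 2.42 and 3.25 CPM, a log2 ratio of 0.43 (-0.19 to 1.05). Since Cstdc5 shares sequence with Stfa1 and Csta2 with Cstdc4, these values are not independent of the members'.

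The cysteine cathepsins, the proteases that stefins inhibit, were measured in the same cells. Of 11 cysteine cathepsins and legumain 8 had at least 50 UMIs in mature neutrophils. All 8 lay within 2-fold, as did most genes (2.73% of all genes were past 2-fold higher and 6.87% past 2-fold lower), and their median log2 ratio was 0.14 against -0.22 over all genes. Ctsb, encoding cathepsin B, was lower in MYC marrow with 108 and 69.1 CPM, a log2 ratio of -0.65 (-0.76 to -0.54). Ctsc, which encodes the activator of granule serine proteases, was higher with 13.9 and 27.6 CPM, a log2 ratio of 0.99 (0.76 to 1.22), and Ctsl with 16.6 and 26.2 CPM (0.66). Ctsh, at 77.4 and 88.6 CPM, had a log2 ratio of 0.19. For Ctss (0.12), Ctsz (0.08), Ctso (0.15) and Lgmn (0.12) the counting interval of the log2 ratio included 0.

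Other inhibitors and late neutrophil genes differed from gene to gene. Among 10 other leukocyte protease inhibitors with at least 50 UMIs 1 was past 2-fold higher (2.73% of all genes were), Wfdc17 at 163 and 609 CPM (log2 ratio 1.90); it was followed by Serpinb1a, an inhibitor of neutrophil elastase (0.80), and Anxa1 (0.61). Serpinb2 (-0.93), the calpain inhibitor gene Cast (-0.17) and Timp2 (-0.07) were lowest. The secreted cystatin Cst3 (0.07) and the cystatin-like granule genes Ngp (-0.22) and Camp (0.33) stayed within 2-fold, as did Cst7 (0.97), and of 5 granule serine protease and myeloperoxidase genes Ctsg (1.02), Prss57 (0.85) and Prtn3 (0.42) were highest and Mpo (-0.88) lowest, with Elane at -0.29. Of 20 late neutrophil genes 2 were past 2-fold higher, Ifitm1 (1.78) and Asprv1 (1.22), followed by Retnlg (0.60), and 2 past 2-fold lower, the receptor gene Csf3r (-1.30) and Il1b (-1.10), followed by Cxcr2 (-0.72); over all genes 2.73% were past 2-fold higher and 6.87% lower. The median of the 20 was -0.17, against -0.22 over all genes. The class held 1839 terminal cells of 3967 in the control and 188 of 3186 in MYC marrow. Csf3r was also lower in MYC marrow inside single clusters, with 1980 and 1371 CPM in cluster 0 and 332 and 181 CPM in cluster 8, and so was Cxcr2, with 2268 and 1482 CPM in cluster 0 and 834 and 596 CPM in cluster 8. Il1b differed in direction, with 1274 and 1578 CPM in cluster 0 and 276 and 344 CPM in cluster 2, but 35.2 and 19.7 CPM in cluster 1, 7.79 and 3.33 CPM in cluster 8 and 514 and 176 CPM in cluster 16. The part of the stage makeup in the stefin values was not tested beyond the values by cluster.

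Over the same 26 profiles, among 10637 genes with at least 500 UMIs, the genes most like the stefin A-like sum were Retnlg (Pearson r 0.90), Mcam (0.87), Prok2 (0.85), Cxcl2 (0.85) and Upp1 (0.83). In mature neutrophils Prok2 stood at 30.1 and 117 CPM and Cxcl2 at 94.2 and 432 CPM. Those most like Cstb were Anxa5 (0.90), Capza2 (0.86), Asah1 (0.86), Cd302 (0.84) and Ctsc (0.83).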

How the data were processed

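The authors deposited UMI counts, whole numbers for each gene in each cell barcode, per the file headers made with Cell Ranger; the submitters' processing notes name Cell Ranger 6.0, Seurat, GRCm38 and mm10. Cells with at least 500 UMIs, 200 genes and under 10% mitochondrial UMIs were kept, and doublets called with Scrublet in scanpy 1.11.5 at an expected 0.8% per 1000 barcodes were removed: 701 (4.53%) and 251 (1.95%), against 13.7% and 11.6% expected, so doublets remained.

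Both libraries were clustered together (Leiden, resolution 1, 15 neighbours, 30 components, 2000 variable genes without the stefin genes) and clusters named from marker lists; 3 clusters with median UMIs under 0.2 of their library's stayed unnamed, a limit chosen after seeing the values. The UMIs of each class were summed within a library and scaled to 1000000 class UMIs (CPM), with exact Poisson intervals, and ratios with exact conditional binomial intervals. No test was run, since each group had 1 library. The members, lists and classes were chosen with earlier results of these data known. Named genes were every member, every cathepsin and stefin-cluster gene with at least 50 UMIs in mature neutrophils, the 3 highest and 3 lowest of each other list there, and the 5 genes most like the stefin A-like sum and Cstb. The comparison of spread over cells, its minimum of 400 UMIs and the mark of 5 UMIs for a rich cell were chosen after seeing the data. The ratio intervals were tested on simulated data. Alternatives changed the filters, doublets, clustering, class assignment and scaling.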

Additional observations from a re-analysis of the deposited data

Results flagged for a closer look

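Against the direction of mature neutrophils as a whole, plasmacytoid dendritic cells had less stefin A-like RNA in MYC marrow, with log2 ratios of -1.73 for the sum, -2.72 for Stfa2l1 and -2.07 for Cstdc4; the difference between classes was not tested, and 59 of the 156 control UMIs lay in 1 cell. With cells classed by their markers alone these were -0.64 for the sum, -3.31 for Stfa2l1 and -0.0977 for Cstdc4. Cstb in macrophages had a log2 ratio of -0.95, while mature neutrophils had 0.50; most of the 73 control cells lay in cluster 27 and most of the 664 cells of MYC marrow in cluster 10, and within these clusters the log2 ratios were -0.11 and 0.03. Stfa3 had log2 ratios of -0.65 in cluster 2, where 17 of the 26 UMIs of the 77 control cells came from 1 cell, and of -0.31 in cluster 8, against 0.44 over all mature neutrophils; without the richest cell of each library these were 0.78 (-0.15 to 1.92) and -0.16 (-0.45 to 0.13). In cluster 16, with 21 cells of MYC marrow, the log2 ratio was -0.77 for the stefin A-like sum and -1.94 for Cstdc4. None of these differences between clusters was tested.

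The unnamed clusters, which entered only the totals behind the shares of cells and UMIs, held stefin transcripts at 205 CPM for the stefin A-like sum and 89.6 CPM for Cstb in MYC marrow, against 171 and 44.2 CPM in the control.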

How the results depend on the processing

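Main values, in order, were log2 ratios of 1.12 (stefin A-like sum, mature neutrophils), 0.50 (Cstb, mature) and 0.90 (sum, immature), and an 88.7% share of stefin A-like UMIs in mature neutrophils of MYC marrow. All kept their direction, but the sizes moved. Under 5% mitochondrial UMIs they were 0.77, 0.35, 0.17 and 86.4%. With called doublets kept they were 0.69, 0.38, 0.65 and 87.0%. For the sum in mature and immature cells and the share, cells of at least 1000 UMIs gave 0.78, 0.60 and 89.9%, resolution 0.5 gave 1.16, 1.60 and 71.5%, resolution 2 gave 1.30, 1.64 and 86.9%, marker-only classes gave 1.05, 1.43 and 87.2%, and leaving out the richest 1% of cells gave 1.20, 1.71 and 79.4%. Stefin genes among the variable genes gave 0.74 for the mature sum and 89.3%. For the 3 ratios, median-of-ratios scaling gave 1.33, 0.72 and 1.11, and the mean over cells 1.09, 0.34 and 1.29. Cluster 8 alone gave 1.75 and 0.77 in mature cells, and leaving out the 20 most abundant genes 1.19 for the sum. The share of genes 2-fold higher was 4.66% (mature) and 4.47% (immature) at 10 UMIs, and 11.7% and 12.2% at 1 UMI.

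Among values whose interval excluded 0, signs changed in 10 cases. With doublets kept, the sum had -0.40 in erythroid cells and -0.16 in megakaryocytes. Cstdc4 in granulocyte progenitors had -0.21 at resolution 2 and -0.22 with marker-only classes. Stfa2l1 in immature neutrophils had -0.0197 under 5% mitochondrial UMIs. Cstb in macrophages had 0.00928 under 5% mitochondrial UMIs, 0.0646 at 1000 UMIs, 0.12 with doublets kept and 0.0161 with stefin genes variable. Stfa3 in mature neutrophils had -0.31 in cluster 8 alone. Values whose interval included 0 also changed sign, reaching -0.53 for Cstdc4 and -1.10 for Stfa3 in immature neutrophils, -0.61 for Cstb in conventional dendritic cells and 0.88 for Cstdc4 in erythroid cells. The causes were not tested. Cluster 8 alone, leaving out the richest cell or cells, and shared barcodes were alternatives chosen after seeing the data. No paired analysis was possible because each group had 1 library, and none could be left out. Genes under 50 UMIs are limited by depth.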
